A study of Homo sapiens with 9 samples.

Results

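The replication-dependent histone cluster genes were followed across the 9 RNA-seq libraries of MDA-MB-231, an established human triple-negative breast cancer cell line labelled as wild type. The members were all genes whose symbol in the deposited tables was H1-1 to H1-6, or H2AC, H2BC, H3C or H4C followed by a number, which gave 66 of the 61552 genes listed. There were 6 genes of class H1, 16 of H2A, 17 of H2B, 13 of H3 and 14 of H4. Cultures had received 2-deoxy-glucose (2-DG), a glucose analogue that blocks glycolysis, at 0 mM (control), 10 mM or 20 mM for 24 h, with 3 libraries in each group. All cells were grown in DMEM with serum, and the total RNA was converted to libraries with a SMARTER mRNA-Seq kit. Every library came from this single line, and nothing in the labels says whether replicates were separate cultures, so that each p-value measures only the spread between these libraries.

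Histone mRNAs of the clusters encode the proteins that package newly copied DNA, and most of them are made during S phase. Unlike other mRNAs, the usual transcript of such a gene ends just after a short stem-loop and carries no poly(A) tail. The stem-loop is bound by SLBP, and NPAT drives transcription of the clusters at the histone locus body. Some cluster genes are also known to give longer, polyadenylated transcripts in cells that are not replicating. Replication-independent histones, such as H2AZ1 and H3-3B, lie outside the clusters and are replaced in chromatin throughout the cell cycle. Whether the library kit selected poly(A) RNA is not stated in the sources used here, and the tables do not say which end of a transcript a read came from.

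The levels are FPKM, reads scaled to the length of the gene model and to the total of reads on genes. Because the tables listed FPKM with many digits, the whole reads behind them could be recovered. The libraries held 30974968 to 40843638 reads on genes, and the histone members took 0.0125% to 0.0182% of them. Of the 66 members, 19 were at 0 in all 9 libraries and 29 had reads but too few to be tested. The remaining 18 passed the filter, which asked for at least 10 reads in at least 3 libraries. A count of 0 in a single library allows up to 3 reads, or 0.147 to 0.194 FPKM for a model of 500 bases in the deepest and the shallowest library. This limit covers counting error only. The members at 0 in all 9 libraries were H1-1, H1-3, H1-5, H2AC1, H2AC7, H2AC16, H2BC1, H2BC7, H2BC8, H2BC9, H3C4, H3C6, H3C7, H3C11, H3C15, H4C4, H4C6, H4C7 and H4C13. A count of 0 does not show that such a gene was not transcribed. Paralogs within a class have nearly the same coding sequence, and how reads shared between copies were counted is not given in the sources used here. The division of reads within a class is therefore uncertain, above all for H2AC18 and H2AC19, H3C14 and H3C15, and H4C14 and H4C15, the duplicated copies on chromosome 1. In 16 tested members found in GENCODE 29, exons of H2BC15 shared 393 bases with H2AC15 on the opposite strand and 4 bases with H2AC16 on the same strand. Exons of H2BC18 shared 177 bases with a gene outside the clusters. Whether counting used strand is not given in the sources used here.

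The stem-loop is the element by which usual and longer histone transcripts can be told apart in an annotation. It was searched in the GENCODE 29 transcripts (GRCh38) as 16 bases of the form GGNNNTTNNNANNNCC in which all 6 pairs of the stem can form, G with T included. It was found in 26 of the 62 members with a transcript there, in 6 versions. In many of the other models the annotated transcript stops at or near the end of the coding sequence. The stem-loops of the 9 tested members in which it was found are shown, because each of these genes also carries a transcript that runs past the loop or leaves it out. Capitals mark the 4 bases of the loop, in DNA letters, on the strand of the gene.
H2AC6, chr6:26124669-26124684, plus strand: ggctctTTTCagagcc
H2BC21, chr1:149886188-149886203, minus strand: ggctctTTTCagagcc
H4C8, chr6:26285131-26285146, minus strand: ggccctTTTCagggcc
H2BC4, chr6:26123472-26123487, minus strand: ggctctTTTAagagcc
H2BC5, chr6:26158587-26158602, plus strand: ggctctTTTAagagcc
H2AC11, chr6:27133515-27133530, plus strand: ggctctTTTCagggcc
H2BC15, first loop, chr6:27839090-27839105, plus strand: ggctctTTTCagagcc
H2BC15, second loop, chr6:27865778-27865793, plus strand: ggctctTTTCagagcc
H2BC18, chr1:149811885-149811900, minus strand: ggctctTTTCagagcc
H3C10, chr6:27810516-27810531, plus strand: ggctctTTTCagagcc
Annotated H2AC6 transcripts went on for 1114 and 1128 bases after the loop, and the H2BC21 transcript for 1729 bases. The 4 H4C8 transcripts ended 18, 630, 630 and 1655 bases after it. H2BC4 and H2BC5 each had a transcript with the loop (116 and 39 bases from its end) and a spliced one without it that held a poly(A) signal (AATAAA or ATTAAA) in its last 50 bases. The GENCODE 29 model of H2AC11 ran on for 1761 bases, but the FPKM of this gene were computed with a model of 493 bases. The H2BC15 transcript with the first loop ended 377 bases after it, and the one with the second loop 5 bases after it. That second loop lies past the annotated end of H2AC16 (chr6:27865355-27865747, plus strand), so it may belong to that neighbour rather than to H2BC15. The H2BC18 transcript with the loop ended 1479 bases after it and that of H3C10 769 bases after it.

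Summed over all members, the histone signal was higher after 2-DG. The summed level was 206 ± 2.06 FPKM (mean ± SD, n = 3) in control, 246 ± 26.2 at 10 mM and 272 ± 8.04 at 20 mM, 1.19 and 1.32 times control. One gene, H2BC12, made up 69.8% of the control sum, 67.2% of that at 10 mM and 67.6% of that at 20 mM. Without it the sum went from 62.1 ± 5.64 FPKM in control to 80.8 ± 9.26 and 88.0 ± 0.720. Across the members that were too low to be tested, the sum moved the other way, from 4.83 ± 0.508 FPKM in control to 2.25 ± 0.587 at 10 mM and 2.00 ± 0.208 at 20 mM. The histone total and the sum of the untested members thus went in opposite directions, in non-overlapping libraries at both doses. Single untested members did not share a direction: H4C2 had 40, 15 and 10 reads in the control, 10 mM and 20 mM groups, and H2BC6 had 19, 38 and 42. Because these are bulk libraries, fewer cells in S phase and less histone mRNA per cell cannot be told apart for the lower sum of the untested members. The cause of the higher total was not tested.

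**Figure D1:**
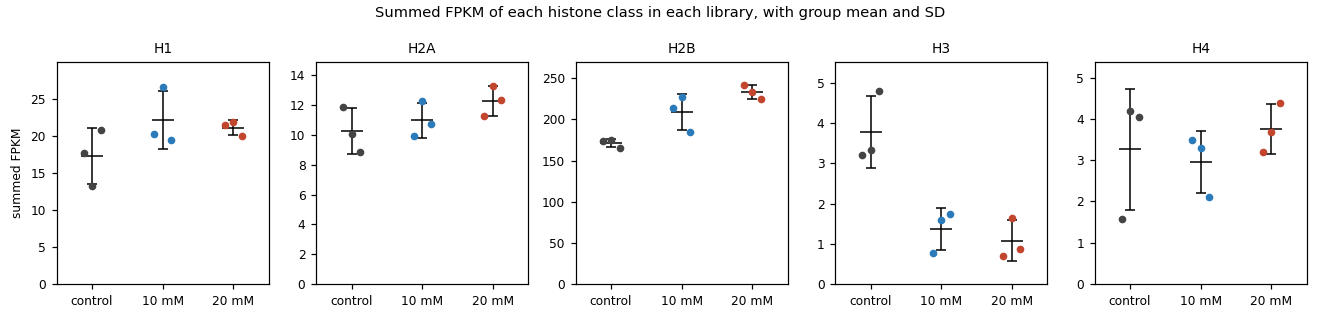
Summed FPKM of the members of each class (y axis, from 0, a separate scale for each class) in the 3 control, 10 mM and 20 mM libraries (x axis); points are libraries, long ticks group means and bars SD. H3 sums lay at 3.20 to 4.81 FPKM in control and at or under 1.75 FPKM in every 2-DG library, while H2B sums of all 6 2-DG libraries lay above those of the control libraries.

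By class, the H2B sum was higher and the H3 sum lower after 2-DG, and H1, H2A and H4 overlapped between control and at least 1 dose. H2B, the class with most of the signal, summed to 172 ± 4.90 FPKM in control, 209 ± 21.8 at 10 mM and 233 ± 8.22 at 20 mM (n = 3 each), and the lowest 2-DG library (185) lay above the highest control library (175). H3 summed to 3.78 ± 0.891, 1.37 ± 0.521 and 1.08 ± 0.507 FPKM, or 0.363 and 0.285 times control. These H3 sums rested on 66 to 87 reads in a control library and on 11 to 35 in a 2-DG library. H1 went from 17.3 ± 3.80 to 22.1 ± 3.88 and 21.1 ± 1.04 FPKM, H2A from 10.3 ± 1.53 to 10.98 ± 1.19 and 12.3 ± 1.02, and H4 from 3.27 ± 1.46 to 2.96 ± 0.751 and 3.75 ± 0.604. No test was run on sums over the members. Without control replicate 1, in which H4 was lowest (1.58 FPKM), the H4 log2 ratio at 20 mM turned from 0.20 to -0.13. At 10 mM the H4 ratio of -0.14 turned to 0.08 without control replicate 2, 0.04 without control replicate 3 and 0.05 without 10 mM replicate 3, and the H2A ratio of 0.10 went to -0.00051 without control replicate 3 and 0.0083 without 10 mM replicate 2.

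Each tested member was then compared between doses with limma on log2(FPKM + 1), with Benjamini-Hochberg adjustment over all 16574 genes tested. At 20 mM, 11 of the 18 members differed from control at adjusted p under 0.05, against 37% of all genes tested. Higher were 7 members (H2AC6, H2BC4, H2BC5, H2BC12, H2BC15, H2BC21 and H4C8; 15.3% of all genes were higher), and lower were 4 (H1-4, H2AC11, H2AC20 and H3C3; 21.6% of all genes were lower). At 10 mM, 10 of 18 differed, against 29.6% of all genes. The 5 higher were H2AC6, H2BC5, H2BC15, H2BC21 and H4C8 (background 12.1%), and the 5 lower were H1-4, H2AC11, H2AC20, H2BC11 and H3C3 (background 17.5%). Both doses were set against the same 3 control libraries. Under the stricter rule of unadjusted p under 0.05 with an absolute log2 fold change over 1, H2BC5 was higher and H1-4 lower at 20 mM (background 2.92%), and no member passed at 10 mM (background 1.74%). Over the 18 members the log2 fold changes had a median of 0.16 for the higher dose and -0.02 for the lower one, beside -0.02 and -0.01 over all genes tested. Without 20 mM replicate 3 the first of these was 0.057. H2AC11 and H3C3 had reached 10 reads at 20 mM in no library, scaled to the median depth, and so passed the filter through the control libraries, where they were high. Their count among the lower members is for that reason no sign of how the low members behaved as a group.

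**Figure D2:**
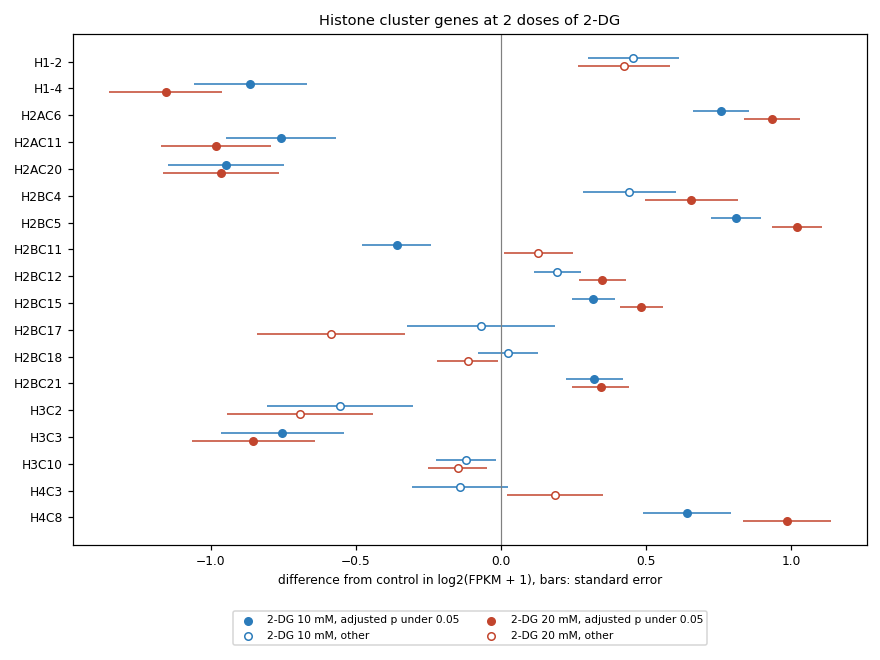
Difference from control in log2(FPKM + 1) (x axis) at 10 mM and 20 mM 2-DG for the 18 tested members (y axis); bars are standard errors from limma, and filled points have an adjusted p under 0.05. The points run from -1.16 for H1-4 to 1.02 for H2BC5, both at 20 mM.

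The linker histones, H1, bind DNA between nucleosomes, and of 3 members with reads only H1-2 and H1-4 could be tested. H1-2 (ENSG00000187837, chr6:26055787-26056428, minus strand) had 15.8, 11.9 and 18.9 FPKM in the control libraries, 19.3, 26.4 and 19.1 at 10 mM, and 21.1, 21.7 and 19.9 at 20 mM. Both dose groups lay above the control libraries without overlap, yet the log2 fold changes of 0.46 ± 0.16 (SE) and 0.42 ± 0.16 did not pass (limma adjusted p = 0.0541 and 0.0598). In limma-voom on the recovered reads they did, at adjusted p = 0.0381 and 0.0484. They also passed without control replicate 3 (0.0224 and 0.0220), and the second without 10 mM replicate 2 (0.0298). H1-4 (ENSG00000168298, chr6:26156354-26157107, plus strand) gave 53, 37 and 52 reads in control, 27, 5 and 11 at 10 mM, and 11, 5 and 1 at 20 mM. Its level fell from 1.70 ± 0.363 FPKM to 0.513 ± 0.421 and 0.216 ± 0.212, with log2 fold changes of -0.86 ± 0.19 and -1.16 ± 0.19 (limma adjusted p = 0.00846 and 0.00129). The share of H1-2 in the H1 sum was 90.0% in control, 97.6% at 10 mM and 98.9% at 20 mM.

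H2A and H2B form the dimers that flank H3 and H4 in the nucleosome core. In H2A a single gene, H2AC6, made up most of the summed FPKM after 2-DG. In recovered reads it already did so in control, with 867 of 1151 reads. Its FPKM rested on a model of 1668 bases, against 494 for H2AC20. H2AC6 (ENSG00000180573, chr6:26124145-26139116, plus strand) had 5.40, 4.96 and 4.26 FPKM in control, 8.14, 9.54 and 9.12 at 10 mM, and 9.23, 10.96 and 10.5 at 20 mM. It was 1.83 and 2.10 times control, with log2 fold changes of 0.76 ± 0.10 and 0.93 ± 0.10 (limma adjusted p = 0.000342 and 6.37e-05). H2AC20 (ENSG00000184260, chr1:149886975-149887364, plus strand) had 69, 37 and 41 reads in control, 9, 26 and 18 at 10 mM, and 15, 13 and 18 at 20 mM. Each 2-DG library was below each control library, and the log2 fold changes were -0.95 ± 0.20 and -0.96 ± 0.20 (limma adjusted p = 0.00612 and 0.00425). H2AC11 (ENSG00000196787, chr6:27133042-27135291, plus strand) had 18, 32 and 18 reads in control, 6, 12 and 2 at 10 mM, and 0, 10 and 0 at 20 mM. Its log2 fold changes were -0.76 ± 0.19 and -0.98 ± 0.19 (limma adjusted p = 0.0140 and 0.00292), and without 10 mM replicate 3 the first was not called (-0.63, adjusted p = 0.0541). That call was also lost with a pseudocount of 0.1 (adjusted p = 0.0736), in limma-voom (0.0524) and with all genes above 0 tested (0.0672). In the H2A sum, H2AC6 went from 47.4% in control to 81.4% and 83.1%, and H2AC20 from 27.2% to 8.70% and 7.44%.

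H2B held 8 of the 18 tested members and 5 of the 7 that were higher at 20 mM. H2BC12 (ENSG00000197903, chr6:27146418-27146798, minus strand), the most abundant member, had 146, 149 and 137 FPKM in control, 169, 181 and 147 at 10 mM, and 190, 185 and 175 at 20 mM. These values rested on 2326 to 3651 reads a library. The 20 mM libraries all lay above control (log2 fold change 0.35 ± 0.08, limma adjusted p = 0.00751), whereas 10 mM replicate 3 lay within the control range (0.19 ± 0.08, adjusted p = 0.101). Without that library the difference at 10 mM passed (0.28, adjusted p = 0.0219).

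H2BC5 (ENSG00000158373, chr6:26158146-26171349, plus strand) showed the largest rise of the tested members at 20 mM in log2(FPKM + 1), a scale that understates low genes, whereas the less abundant H4C8, H2BC15 and H2AC6 had larger ratios to control. It had 19.1, 16.7 and 18.6 FPKM in control, 32.6, 36.3 and 28.9 at 10 mM, and 39.9, 35.9 and 37.7 at 20 mM. The log2 fold changes were 0.81 ± 0.09 and 1.02 ± 0.09 (limma adjusted p = 0.000123 and 1.81e-05), or 1.80 and 2.09 times control, and the call at both doses remained in every alternative fit. Among the less abundant H2B genes, H2BC15 was 2.36 and 3.16 times control, at 103 reads over the 3 control libraries, 254 at 10 mM and 318 at 20 mM, and its call at 10 mM was lost with all genes above 0 tested (adjusted p = 0.0682). H2BC4 was 1.46 and 1.73 times control (limma adjusted p = 0.0634 and 0.00970), and the first passed without control replicate 3 (0.0211). H2BC21 was 1.40 and 1.42 times control (0.0336 and 0.0211), and its call at 20 mM was lost without control replicate 3 (adjusted p = 0.0758), 20 mM replicate 1 (0.0680) or 20 mM replicate 2 (0.0661). At 10 mM the H2BC21 call was lost on leaving out any 1 library except control replicate 1 and 10 mM replicate 3, at adjusted p between 0.0501 and 0.111, and with all genes above 0 tested (0.0579).

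H2BC11 was lower at 10 mM (0.674 times control, limma adjusted p = 0.0464) and at 1.14 times control at 20 mM (adjusted p = 0.435). The first call was lost on leaving out any 1 library except 10 mM replicate 2, at adjusted p between 0.0540 and 0.155. It was also lost with the replicate block (0.0714), with median-ratio factors (0.0593), in limma-voom (0.115) and with all genes above 0 tested (0.106). H2BC17 (0.450 times control at 20 mM, adjusted p = 0.0996) and H2BC18 (0.588 times, adjusted p = 0.421) did not pass. Without control replicate 2 or 20 mM replicate 2, H2BC17 was called lower (adjusted p = 0.0444 and 0.0112).

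**Figure D3:**
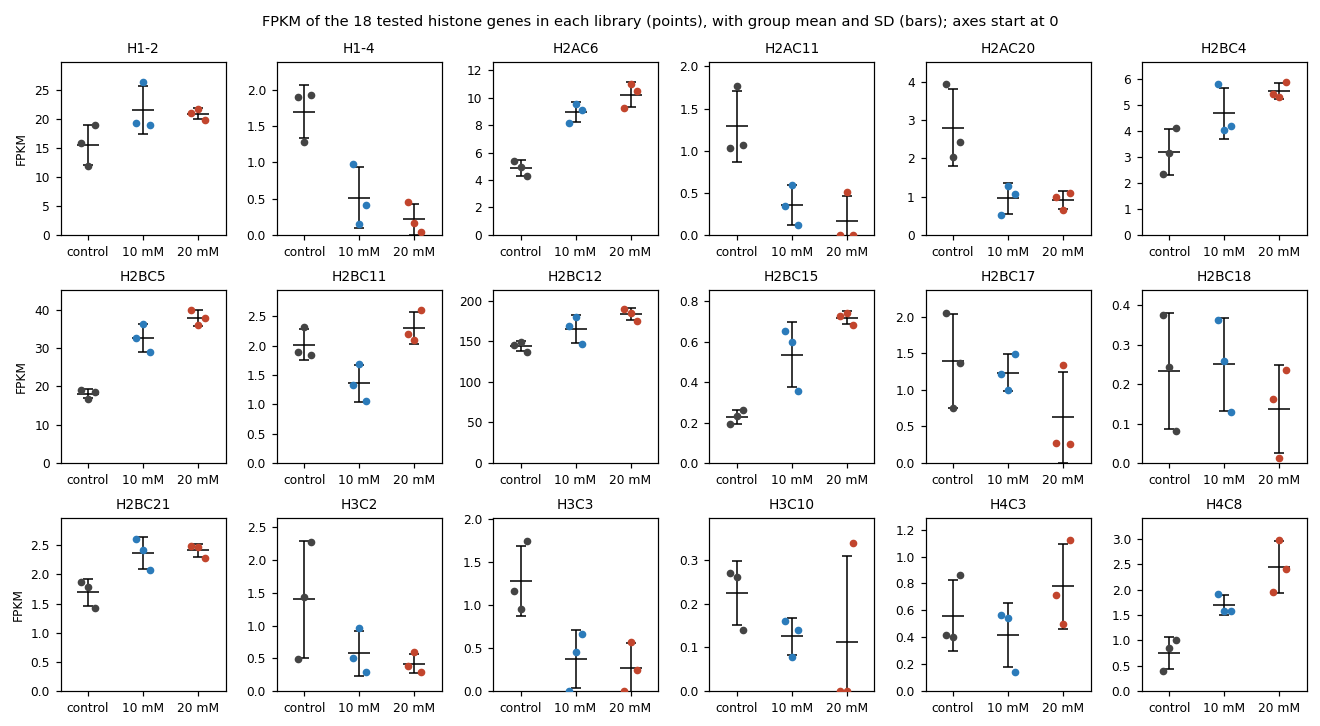
FPKM (y axis, from 0, a separate scale for each gene) of the 18 tested members in the control, 10 mM and 20 mM libraries (x axis); points are libraries, long ticks means and bars SD. H2BC5, H2AC6 and H4C8 lay above control in all 6 2-DG libraries, and H1-4, H2AC20 and H3C3 below it.

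H3 and H4 form the tetramer at the centre of the nucleosome, and their cluster genes were far less abundant here. H3C2 (ENSG00000286522) had 9, 27 and 40 reads in control, 9, 20 and 5 at 10 mM, and 6, 12 and 5 at 20 mM. Control replicate 1 was as low as the 2-DG libraries, and the log2 fold changes of -0.56 ± 0.25 and -0.69 ± 0.25 did not pass (limma adjusted p = 0.129 and 0.0556). Without that library both passed (-0.86 and -0.999, adjusted p = 0.0112 and 0.00412), and the second passed without 10 mM replicate 2 (0.0461). H3C3 (ENSG00000287080) had 20, 17 and 29 reads in control, 0, 9 and 11 at 10 mM, and 0, 11 and 4 at 20 mM. Its log2 fold changes were -0.75 ± 0.21 and -0.85 ± 0.21 (limma adjusted p = 0.0235 and 0.0105), and the first was lost without control replicate 3 (adjusted p = 0.0858) or 10 mM replicate 1 (0.0661). It was also lost with a pseudocount of 0.1 (0.0881), in limma-voom (0.0570) and with all genes above 0 tested (0.0976), where the call at 20 mM was lost too (0.0524). H3C10, the third tested H3 gene, was at 0.561 and 0.504 times control and did not pass (limma adjusted p = 0.419 and 0.287). At 20 mM only replicate 3 had H3C10 reads, so that a fit without it sets the group to 0 and is no check of this value.

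In H4 the gene with the highest mean FPKM was H4C2 in control and H4C8 at both doses. FPKM rested on models of 388 bases for H4C2 and 2163 bases for H4C8. In recovered reads H4C8 already led in control, with 172 against 40 for H4C2. In control replicate 1, H4C2 (0.290 FPKM) also lay below H4C8 (0.391) and H4C3 (0.417). H4C8 (ENSG00000158406, chr6:26277609-26285638, minus strand) had 30, 67 and 75 reads in control, 146, 140 and 118 at 10 mM, and 131, 256 and 172 at 20 mM. Its level went from 0.749 ± 0.321 FPKM to 1.70 ± 0.193 and 2.45 ± 0.511, 2.27 and 3.27 times control, with log2 fold changes of 0.64 ± 0.15 and 0.98 ± 0.15 (limma adjusted p = 0.0110 and 0.000801). H4C3 (ENSG00000197061, chr6:26103876-26104310, plus strand) had 6, 6 and 12 reads in control, 8, 9 and 2 at 10 mM, and 9, 8 and 15 at 20 mM, and its groups overlapped (limma adjusted p = 0.563 and 0.416). H4C8 made up 22.9% of the H4 sum in control, 57.3% at 10 mM and 65.1% at 20 mM. H4C2 was too low to be tested: it had 4, 16 and 20 reads in control, 6, 7 and 2 at 10 mM, and 1, 1 and 8 at 20 mM.

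Many H2A and H2B genes lie head to head, with their starts close together on opposite strands. Taking starts from RefSeq, 12 head-to-head pairs of members of any class had starts 194 to 979 bases apart. Among them, H3C4 with H2BC7 (223 bases) and H3C7 with H2BC9 (979 bases) join H3 to H2B, and the others join H2A to H2B. Of the 12 pairs, 8 had reads in both members and 3 had both members tested. The pairs were picked out after the single genes had been seen, and their values are a description. The stretches between the starts are shown because neighbours on either side of them were both higher at 20 mM in the first pair and went apart in the second (RefSeq, GRCh38.p14, plus strand, 5′ to 3′). Capitals mark CCAAT, ATTTGCAT (the octamer motif) and TATAAA on either strand, and in the third stretch TATAAA and its reverse complement overlap.
H2BC4 and H2AC6, chr6:26123927-26124171: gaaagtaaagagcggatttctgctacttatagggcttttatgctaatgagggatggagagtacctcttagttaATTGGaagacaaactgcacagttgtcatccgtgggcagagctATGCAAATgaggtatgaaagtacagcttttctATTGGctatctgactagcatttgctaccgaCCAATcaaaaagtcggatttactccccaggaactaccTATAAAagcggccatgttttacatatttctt
H2BC21 and H2AC20, chr1:149886683-149886917: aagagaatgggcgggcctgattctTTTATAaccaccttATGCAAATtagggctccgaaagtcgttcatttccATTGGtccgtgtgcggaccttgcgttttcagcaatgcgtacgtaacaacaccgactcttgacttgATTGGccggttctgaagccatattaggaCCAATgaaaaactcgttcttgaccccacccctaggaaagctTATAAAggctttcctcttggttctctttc
H2BC11 and H2AC11, chr6:27132796-27133042: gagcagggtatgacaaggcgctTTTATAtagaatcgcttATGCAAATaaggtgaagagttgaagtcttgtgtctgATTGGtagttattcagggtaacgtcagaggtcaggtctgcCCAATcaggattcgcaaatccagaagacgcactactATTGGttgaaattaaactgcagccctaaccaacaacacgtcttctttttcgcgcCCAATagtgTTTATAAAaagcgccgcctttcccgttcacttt

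In the pair on chromosome 1, H2BC21 rose from 402 reads over the control libraries to 582 and 557, and H2AC20, whose start is 236 bases away, fell from 147 to 53 and 46. H2BC4 and H2AC6, with starts 246 bases apart, both had more reads after 2-DG, at 245, 370 and 413 for H2BC4 and 867, 1650 and 1781 for H2AC6. H2AC11 fell from 68 reads to 20 and 10 while H2BC11, with 225, 159 and 248 reads, was lower only at 10 mM. Beside the abundant H2BC12, with 7595, 9081 and 9436 reads, H2AC12 had 14, 5 and 3 reads and was not tested. H2BC15 rose from 103 reads to 254 and 318, and its neighbour H2AC15 had 12, 4 and 6. All 3 printed stretches held an octamer match and at least 3 CCAAT matches, whichever way the neighbours moved.

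**Figure D4:**
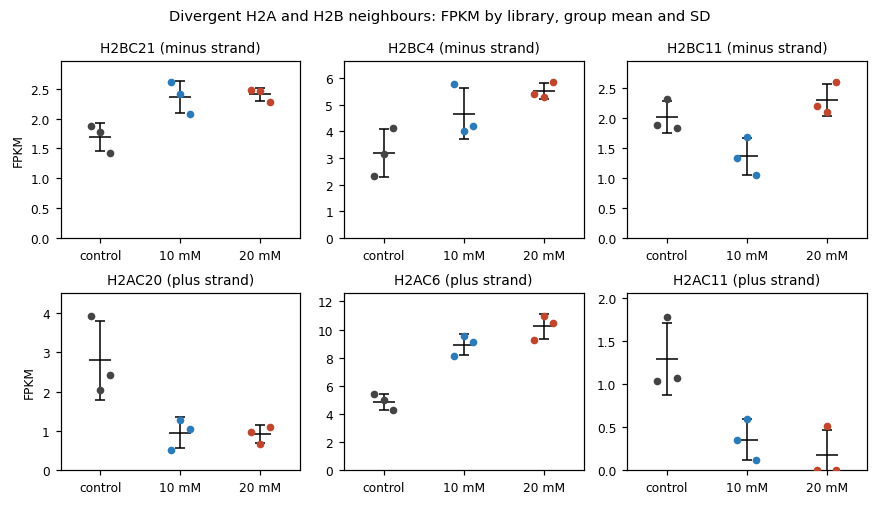
FPKM by library (y axis, from 0, a separate scale for each gene) of the 3 divergent pairs with both members tested, in control, 10 mM and 20 mM libraries (x axis); each column is 1 pair, points are libraries, long ticks means and bars SD. In the first pair the 3 control libraries are lowest for H2BC21 and highest for H2AC20.

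Over the 61 members with a RefSeq promoter (250 bases before to 50 after the start), CCAAT on either strand stood in 52, against 34.6% of all 35116 promoters. The octamer stood in 26 members, against 1.77% of all promoters, and TATAAA in 42, against 11.5%. Of the 7 members higher at 20 mM, 6 held CCAAT, 4 the octamer and 5 TATAAA, and of the 4 lower members 4, 2 and 3 did. H4C8 held none of these letters in its window. A match is a description of the letters and not a binding site. H2AC12, H3C11, H3C12, H4C1 and H4C3 had no entry.

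The gene models of the tested members differed in length, which is set beside the calls as a description. Of 7 tested members whose FPKM rested on a model over 1000 bases, 4 were called higher and 0 lower at 20 mM, with a median log2 fold change of 0.34. Of the other 11, 3 were higher and 4 lower, with a median of -0.59, but H2AC11 and H3C3 among the 4 had passed the filter through control. Over all genes tested, 15.3% were higher and 21.6% lower at 20 mM. With at least 10 reads asked of every library, 0 of the other models were lower and their median was 0.54. All 4 lower members had a 2-DG library under 10 reads, so this filter removed them in advance. It therefore cannot check the contrast by length, which rests on members that it leaves out. The length behind the values was chosen for this split after the values had been seen. With GENCODE 29 exon lengths instead, H2AC11 moved to the long group and H2BC11 to the other, the counts became 4 higher and 1 lower against 3 higher and 3 lower, and the median of the other models turned to 0.13. H2BC12 rose on a model of 495 bases. H2AC11 fell, with 493 bases behind its values and 2250 bases in GENCODE 29, so its side of the split depends on the annotation. Of the 9 tested members with an annotated stem-loop, 6 were higher (beside 15.3% of all genes), 1 was lower (beside 21.6%) and 2 were not called at 20 mM. All 9 had a transcript running at least 100 bases past the loop or skipping it, so this count says only which models include the loop, and H3C2 and H3C3 had no transcript of that name in GENCODE 29. H2BC12, higher without an annotated loop, has a GENCODE 29 model that ends with the coding sequence, but its gene spans 8566 bases in RefSeq. A gene span over 1000 bases in either annotation was found for 7 of 7 higher, 1 of 4 lower and 3 of 7 uncalled members. Only RefSeq gave a span for H3C2 and H3C3. Neither annotation alone gave all 7: H2BC12 has 381 bases in GENCODE 29, and H2AC6, H2BC15 and H4C8 have 519, 542 and 409 in RefSeq. The lower member, H2AC11, has 2250 bases in GENCODE 29 and 493 in RefSeq. The share of all tested genes with such a span was not counted. These counts were drawn up after the calls were known, and which transcripts the reads came from was not tested.

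**Figure D5:**
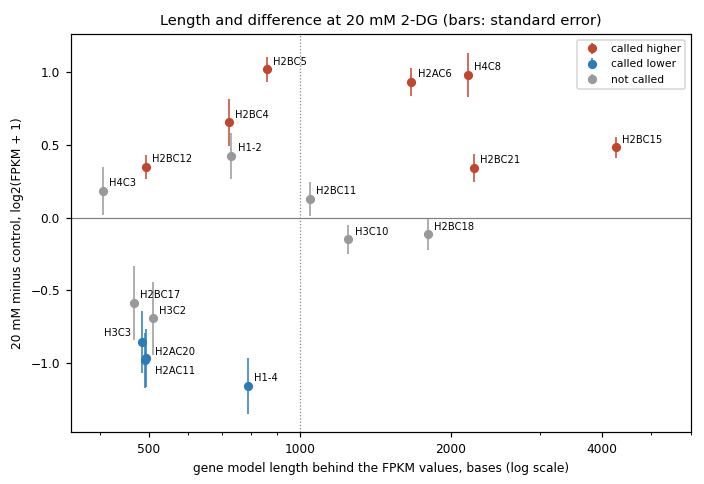
Length of the gene model behind the FPKM values in bases (x axis, log scale, dotted line at 1000) and difference between 20 mM and control in log2(FPKM + 1) with its standard error (y axis) for the 18 tested members. All 4 members called lower had models under 1000 bases, while members called higher lay on both sides of the line.

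Between 20 mM and 10 mM, limma called 0 of the 16574 genes and hence 0 members. At an unadjusted p under 0.05 there were 1139 genes (6.87%) and 3 members, and limma-voom on the recovered reads also called 0 genes. The 3 members, all higher at 20 mM, were H2BC11 (log2 difference 0.49 ± 0.12, adjusted p = 0.339), H4C8 (0.34 ± 0.15, adjusted p = 0.720) and H2BC5 (0.21 ± 0.09, adjusted p = 0.689). The libraries of the doses did not overlap for H2BC11, H2BC15 and H4C8, 3 of 18 members beside 11.9% of all genes. Against control, 12 of 18 members did not overlap at 20 mM, where 53.3% of all genes did not, and 11 of 18 at 10 mM, where 40.5% did not.

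The genes that make, process, decay and deposit histones were taken from lists drawn up from general knowledge, with the levels again in FPKM and the tests from the same limma fit. Of 13 listed histone genes outside the clusters, all tested and not all strictly replication-independent, 10 were lower and 0 higher at each dose. Over all genes, 17.5% were lower and 12.1% higher at 10 mM, and 21.6% and 15.3% at 20 mM. The median difference of the 13 genes on the log2 scale was -0.42 and -0.48. The largest fall among them at 20 mM was that of CENPA, the H3 variant of centromeres, from 9.43 FPKM in control to 4.55 and 2.55 (log2 fold changes -0.92 ± 0.15 and -1.57 ± 0.15, limma adjusted p = 0.00147 and 4.04e-05). H2AX, the variant phosphorylated at DNA breaks and named here after its values were seen, fell from 119 to 50.2 and 41.2 FPKM (-1.23 ± 0.10 and -1.51 ± 0.10, limma adjusted p = 1.81e-05 and 3.01e-06). At 10 mM the fall of H2AX was the larger of these.

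Of 18 genes of histone transcription and pre-mRNA processing, 1 was higher and 6 lower at 10 mM, and 2 were higher and 7 lower at 20 mM. The higher genes were 5.56% and 11.1% of the list, beside 12.1% and 15.3% of all genes, and the lower genes 33.3% and 38.9%, beside 17.5% and 21.6%. SLBP, which binds the stem-loop, fell from 46.9 FPKM to 33.4 and 30.5 (-0.48 ± 0.07 and -0.61 ± 0.07, limma adjusted p = 0.000885 and 0.000154). NPAT, the transcriptional coactivator of the clusters, was at 1.89, 1.59 and 1.47 FPKM and did not pass (limma adjusted p = 0.421 and 0.254). The largest fall in log2(FPKM + 1) was that of CDK2, the kinase of S phase entry that phosphorylates NPAT, from 13.0 to 6.31 and 5.60 FPKM (-0.95 ± 0.09 and -1.09 ± 0.09, limma adjusted p = 7.49e-05 and 1.93e-05). As a ratio to control, the less abundant CCNE2, a cyclin partner of CDK2, was lower still, at 1.41, 0.544 and 0.381 FPKM (-0.63 ± 0.10 and -0.79 ± 0.10, limma adjusted p = 0.00136 and 0.000244). HINFP, an activator of H4 genes, was higher, at 3.05, 3.84 and 4.19 FPKM (0.26 ± 0.08 and 0.36 ± 0.08, limma adjusted p = 0.0298 and 0.00483). Its call at 10 mM was lost on leaving out any 1 library except control replicate 2 and 10 mM replicate 1, at adjusted p between 0.0505 and 0.0850.

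Histone mRNA is destroyed at the end of S phase by uridylation and exonucleases. Of 10 genes of this decay, 9 were tested, and 1 was higher and 1 lower at each dose, 11.1% of those tested in each direction. These shares were below those over all genes, where 12.1% were higher and 17.5% lower at 10 mM, and 15.3% and 21.6% at 20 mM. TUT7, a terminal uridylyltransferase, rose from 3.43 to 5.46 and 5.48 FPKM (0.52 ± 0.15 and 0.55 ± 0.15, limma adjusted p = 0.0290 and 0.0193). This call was lost at 20 mM without control replicate 1 (adjusted p = 0.0669), 20 mM replicate 2 (0.0601) or 20 mM replicate 3 (0.0645), and at 10 mM without control replicate 1 or 3 or 10 mM replicate 1 or 3 (0.0517 to 0.0952). The replicate block also ended it at 10 mM (adjusted p = 0.0569), and testing all genes above 0 ended it at both doses (0.0879 and 0.0615). TENT4A, a nucleotidyltransferase that extends RNA ends, fell from 12.1 to 9.16 and 8.45 FPKM (-0.37 ± 0.07 and -0.47 ± 0.07, limma adjusted p = 0.00397 and 0.000711).

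Of 20 genes of histone chaperones and of the acetylation of new histones, 1 was higher (5% of the list) and 11 were lower (55%) at each dose. Over all genes, 12.1% were higher and 17.5% lower at 10 mM, and 15.3% and 21.6% at 20 mM. ASF1B, the chaperone that passes H3 and H4 to replicating DNA, fell from 40.3 to 13.2 and 9.92 FPKM (-1.53 ± 0.08 and -1.92 ± 0.08, limma adjusted p = 2.17e-06 and 3.26e-07). UBN1, a subunit of the HIRA complex that deposits H3.3 outside replication, rose from 6.97 to 9.13 and 9.91 FPKM (0.34 ± 0.09 and 0.45 ± 0.09, limma adjusted p = 0.0175 and 0.00338), with the 10 mM call lost without control replicate 1 (adjusted p = 0.0610). All 24 S phase DNA replication genes were lower at both doses, with median log2 fold changes of -0.91 and -1.10. RRM2, the small subunit of ribonucleotide reductase, fell most, from 16.3 to 3.68 and 2.65 FPKM (-1.89 ± 0.11 and -2.25 ± 0.11, limma adjusted p = 3.42e-06 and 6.79e-07). Between the doses 0 of these 24 genes were called. They were lower than control in the same 2-DG groups in which the histone members differed, and their part in the histone differences was not tested.

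All 5 markers of the cell line were present. VIM was at 285, 289 and 274 FPKM in the dose groups, KRT18 at 150, 137 and 138 and AXL at 117, 107 and 102, and none of these was called. CAV1 fell from 103 to 66.4 and 62.4 FPKM (limma adjusted p = 8.11e-05 and 2.21e-05) and CD44 from 69.8 to 58.3 and 56.6 (0.0210 and 0.00827). ESR1 was under 0.01 FPKM and PGR under 0.02 in every group mean, and ERBB2 fell from 8.81 to 5.91 and 5.76 FPKM. Of 9 markers of leukocytes, endothelium and fibroblasts, 6 or more were under 0.2 FPKM in every library of a group. Their summed level was 4.47 to 5.56 FPKM in control libraries, 2.87 to 4.29 at 10 mM and 2.03 to 2.77 at 20 mM, and CD14 with PECAM1 made up 4.37 to 5.27, 2.84 to 4.23 and 2.01 to 2.65 FPKM of it. CD3E, CDH5 and PTPRC were near 0. The part of this difference in the histone values was not tested.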

How the data were processed

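RNA-seq tables of 9 MDA-MB-231 libraries were analysed, 3 for each dose of 2-DG. The authors deposited FPKM for 61552 genes per library. Per the labels, the build was GRCh38 (hg38), whereas the aligner, counter and annotation release are not given in the sources used here. FPKM was recognised from the values: multiplied by gene length and library total, they gave whole reads for 32806 of 32806 genes above 0 (tolerance 0.0001 reads). Lengths came from GENCODE 29, else RefSeq, else the smallest length giving whole reads. RefSeq lengths were added after values were seen, and counts of genes read in 1 library are known only up to a common factor. The recovered reads made up 99.8% to 99.9% of each total. No 2 libraries of the same group agreed within sampling noise.

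limma 3.58.1 (R 4.3.3; trend and eBayes) was fitted on log2(FPKM + 1) of all 9 libraries over genes with 10 or more reads (scaled to the median depth) in 3 or more libraries and 15 in all, which left 16574 genes. Fold changes on this scale understate the change of low genes. The study's thresholds (unadjusted p under 0.05, absolute log2 fold change over 1) were a second rule, applied to the limma fit. Fits were tested on simulated data. The members and lists were chosen with earlier results of these data known. Values by library were given for the 2 most abundant tested members of each class and those with the largest called rise and fall at 20 mM. In the other lists, group means were given for SLBP, NPAT and the called gene with the largest change in each direction. Python 3.11.15 and pandas 2.3.3 made the tables. Alternatives were another pseudocount (0.1), 2 other filters, median-ratio scaling, a replicate block, limma-voom, eBayes without trend and leaving out each library. A marker fixed for other cell types is not reported here.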

Additional observations from a re-analysis of the deposited data

How the results depend on the processing

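Of 320 counts, medians and class ratios recomputed under the alternatives, 273 stayed within 1.5 times the main count or 1 SD of the main value. Of 1365 single-gene values, 1294 kept their call and none changed direction after a call. With all genes above 0 tested, 3 members were higher and 2 lower at 10 mM (main 5 and 5), the median over members at 20 mM was -0.051, long models had medians of 0.052, 0.11 and 0.032 (10 mM, 20 mM, 20 against 10 mM) and the other models -0.12 at 20 mM. With at least 10 reads in every library, 9 members remained, 1 was lower at 10 mM and 0 at 20 mM, the medians over members were 0.44, 0.48 and 0.17, the long models stood at 0.48 at 20 mM and the other models at 0.45, 0.54 and 0.18. Of the 5 members called lower at either dose, this filter keeps only H2BC11, so the lower counts and medians under it are set in part by the filter. With a pseudocount of 0.1, 3 members were lower at 10 mM, the other models had medians of -0.42 and -1.27, and the long models 0.49 at 20 mM. limma-voom called 2 members lower at 10 mM, with a median of 0.055 over members, 0.48 and 0.51 over long models and -0.48 and -1.32 over the others. The stricter rule left 0 higher and 0 lower at 10 mM and 1 and 1 at 20 mM. Median-ratio factors moved the H2B log2 ratio at 20 mM from 0.44 to 0.50. GENCODE 29 lengths, an alternative chosen after seeing the data, gave 0.13 for the other models at 20 mM.

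Leaving out 1 library gave 3 to 5 members lower at 10 mM, medians over members of -0.054 to 0.11 at 10 mM, 0.057 to 0.24 at 20 mM and 0.0022 to 0.11 between doses, long-model medians of 0.27 to 0.39 at 20 mM and 0.079 to 0.20 between doses, other-model medians of -0.10 to 0.11 between doses, and log2 ratios at 20 mM of 0.13 to 0.45 for H1 and -0.13 to 0.42 for H4 and at 10 mM of -0.47 to 0.076 for H4 and -0.00051 to 0.21 for H2A. The causes were not tested. Of 320 list counts, 31 moved, all among counts of 0 to 2 higher genes. Replicate numbers did not pair the libraries: deviations of same-numbered libraries correlated at -0.41 to 0.29, and 4 of 9 libraries correlated best with their own number. With the replicate block, 9 members were called at 10 mM (5 higher, 4 lower) and 11 at 20 mM (7 higher, 4 lower). With 1 read on 1 kb worth 0.0245 to 0.0323 FPKM, members under about 10 reads per library could not be compared singly.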

Other observations

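Histone-cluster rows whose symbols carry the P of a pseudogene were left out of the members by the rule, and 2 of them, picked here after their values were seen, had over 100 recovered reads over the 9 libraries. H2BC19P had a mean of 0.115 FPKM in control, 0.198 FPKM at 10 mM and 0.232 FPKM at 20 mM, from 206 reads in all. H2BC20P had a mean of 0.301 FPKM in control, 0.383 FPKM at 10 mM and 0.422 FPKM at 20 mM, from 755 reads in all. The libraries of the groups overlapped for both genes. At 20 mM against control, the adjusted p of limma was 0.182 for H2BC19P, with a log2 fold change of 0.14 and an SE of 0.08, and 0.284 for H2BC20P, with a log2 fold change of 0.13 and an SE of 0.09. At 10 mM the adjusted p of limma was 0.350 for H2BC19P and 0.505 for H2BC20P, so neither passed at either dose.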
